A study of Homo sapiens with 6 samples.

Results

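The genes described here are the 113 expressed protein-coding genes at the distal end of the long arm of human chromosome 16, of 15001 genes tested in all and 12152 protein-coding genes tested. They are the protein-coding genes of GENCODE 29 on chromosome 16 whose start lies at or after 70000000 on GRCh38 and which reached at least 1 FPKM (a read level scaled to gene length and to the depth of the library) in at least 2 of the 6 libraries. Of 176 such annotated genes, 173 had a value in both deposited tables, 57 of these did not reach the expression limit (15 of them were listed at 0 in all 6 libraries), and MVD, CDH13 and FANCA were left out by name. The region was chosen from the differences between the edited and the wild-type cells in these same libraries, so those differences, and the calls that a fit over all genes makes among them, are given as a description and support nothing.

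RNA came from U2OS, a human osteosarcoma line, at 65 to 75% confluency in log-phase growth. The line labelled G3C2, edited with CRISPR/Cas9 and labelled deficient in ZFP36L1, gave 3 libraries, and wild-type (WT) U2OS gave 3. Each genotype has a library with no suffix in its title, called 1 here, and libraries b and c. Libraries 1 stand in a first FPKM table and libraries b and c in a second one with its own scale, so G3C2 is set against WT within a table. Within the second table, libraries b are set against each other, and likewise libraries c, by the letter in their titles alone. G3C2 is the only edited line, so the edit and any other difference between this line and WT U2OS cannot be told apart, and whether libraries 1, b and c are separate cultures grown on the 3 occasions the study names is not stated for each one.

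Human chromosome 16 ends on its long arm in a stretch rich in genes with general duties. They include subunits of the respiratory chain, the proteasome, the ribosome, the splicing machinery and the replication licensing system, together with autophagy proteins and cell-type specific transcription factors. U2OS cells have a highly rearranged karyotype. ZFP36L1, the edited gene, lies on another chromosome and encodes an RNA-binding protein that recruits deadenylases to AU-rich transcripts.

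The position of the edit is not stated for ZFP36L1, so its RNA level does not check the labels. ZFP36L1 had 238, 105.1 and 82.4 FPKM in G3C2 libraries 1, b and c, against 165, 57.1 and 127.5 FPKM in WT libraries 1, b and c (limma adjusted p = 0.752). Of the markers of the line, VIM and SPARC were abundant (at least 128 FPKM in every library), RUNX2 had between 6.41 and 46.4 FPKM, and COL1A1 had 899, 248 and 192 FPKM in G3C2, against 209, 82.1 and 184 FPKM in WT. COL1A2, ALPL and SP7 stayed below 1 FPKM in every library. The T cell marker CD3E and the hepatocyte marker ALB were listed at 0 throughout, and PTPRC stayed below 0.45 FPKM. Of the epithelial markers, KRT18 had between 36.3 and 59.7 FPKM, EPCAM between 3.05 and 18.7 FPKM and CDH1 at most 1.01 FPKM. The second table held between 22600000 and 28960000 reads per library as recovered from the steps between its values.

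Distal chromosome 16 genes were lower in G3C2 than in WT under every replicate label. The median member stood at 64.2%, 69.9% and 79.9% of its WT level for labels 1, b and c, while the median over all tested protein-coding genes stood at 94.9%, 98.4% and 111%. On the scale of log2(FPKM + 1), G3C2 minus WT, the members' medians were -0.59, -0.38 and -0.29, against -0.07, -0.01 and 0.10 over all tested protein-coding genes. The 422 tested protein-coding genes of chromosome 16 that start before 70 Mb had medians of -0.11, -0.01 and 0.11. Members were lower in G3C2 in 106, 97 and 79 of 113 cases for labels 1, b and c. The same held for 7039, 6357 and 5089 of all 12152 tested protein-coding genes. Of the 113, 66 were lower under all 3 labels, 3 were higher under all 3 and 44 were mixed. Over all tested protein-coding genes, 18.7% were lower and 18.8% higher under all 3 labels, and since the region was chosen on this contrast, nothing is read from the members' counts. In these bulk libraries, less RNA per cell and fewer cells making an RNA cannot be told apart.

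**Figure D1:**
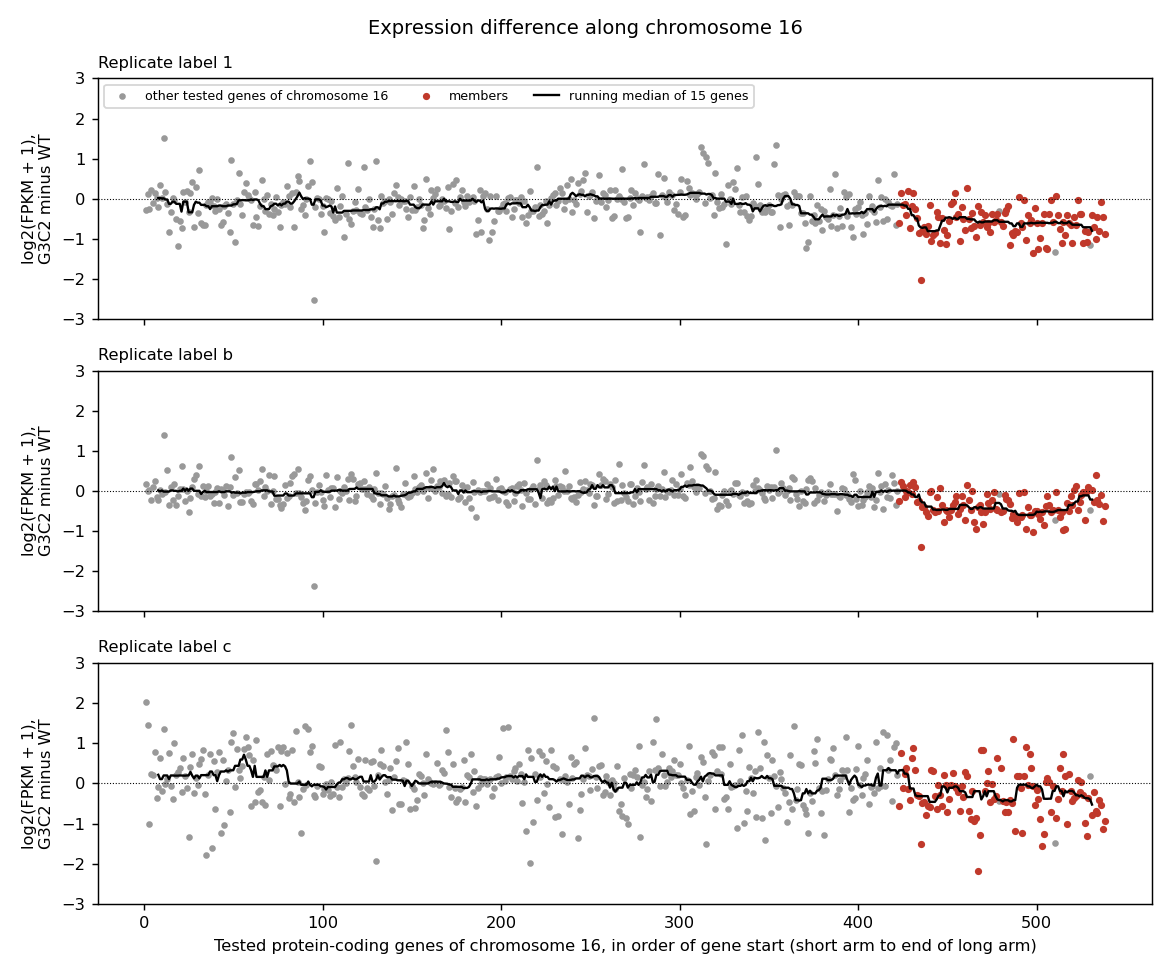
Each point is a tested protein-coding gene of chromosome 16, in order of its start on the x axis, with log2(FPKM + 1) in G3C2 minus WT on the y axis, one panel for each replicate label; members are red, other genes of the chromosome grey, and the line is a running median of 15 genes. The line runs close to 0 along most of the chromosome and lies below 0 over most of the members, with wider scatter in label c.

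A limma fit over all 15001 genes, with terms for genotype and table, gave each gene a log2 fold change and a standard error (SE). The members' median log2 fold change was -0.39, with the middle of the set between -0.56 and -0.23 and extremes of -1.64 and 0.41. Over all tested protein-coding genes the median was 0.02, with the middle between -0.18 and 0.21. None of the 113 members had a limma adjusted p under 0.05, where 0.0267% of all genes were called lower and 0.02% higher. At an unadjusted p under 0.05, 45 members were lower and 0 higher, where 7.43% of all genes were lower and 6.19% higher. With the replicate label as a block, 1 gene of all was called lower and 0 higher, against 4 and 3 without it, and no member passed. Without label c, which leaves 1 residual degree of freedom, 34 members were called lower, where 3.05% of all genes were, and without label b 2 were. These counts come from the contrast that chose the region and are given as a description.

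The lower level was not uniform along the region. The members that start from 70 to 75 Mb (29 genes), 75 to 80 Mb (16 genes), 80 to 85 Mb (23 genes) and from 85 Mb to the end (45 genes) had median log2 fold changes of -0.37, -0.40, -0.37 and -0.42. Within the first of these windows, the 10 members before VAC14 had medians of -0.16, 0.06 and 0.29 for labels 1, b and c, close to the last 10 tested genes before 70 Mb, with -0.14, 0.01 and 0.46. From VAC14 (chromosome 16, 70687439 to 70801161, minus strand) on, 103 members had medians of -0.60, -0.43 and -0.32. This division was made after the values were seen. VAC14, the scaffold of the PIKfyve lipid kinase complex, had 21.6, 8.02 and 8.57 FPKM in G3C2 libraries 1, b and c, against 30.8, 9.98 and 10.7 FPKM in WT.

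Genes beside the limits of the set were as follows. The last tested gene before 70 Mb, WWP2, a ubiquitin ligase, had log2 differences of -0.14, 0.01 and 0.21, and the first member, PDPR, a regulatory subunit of pyruvate dehydrogenase phosphatase, had -0.62, -0.24 and -0.57. Overlap with any other gene covered 19.6% of the exon bases of PDPR, and PDPR has close copies elsewhere, so its reads may not all be its own. By level, NECAB2 was just inside the set with 1.14 FPKM in its second-highest library (log2 differences -0.36, -0.09 and -0.70), and CHST4 was just outside it with 0.959 FPKM (-0.83, -0.44 and -0.44).

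Members with the lowest log2 fold changes were spread over the region and have unrelated duties. CALB2 (ENSG00000172137, chromosome 16, 71358713 to 71390438, plus strand, on GRCh38), calretinin, a calcium-binding protein of neurons and mesothelium, had 8.92, 0.354 and 0.521 FPKM in G3C2 libraries 1, b and c, against 39.4, 2.57 and 3.33 FPKM in WT libraries 1, b and c. The G3C2 libraries held 22.6%, 13.8% and 15.6% of the CALB2 level of the WT library with the same label, and the second table held 16 and 20 reads of it in G3C2 b and c, against 130 and 144 in WT b and c. WWOX (ENSG00000186153, 78099413 to 79212667, plus strand), an oxidoreductase and candidate tumour suppressor gene that spans a fragile site, had 4.39, 1.76 and 1.47 FPKM in G3C2, against 9.36, 4.32 and 3.50 FPKM in WT. Its G3C2 level was 46.9%, 40.8% and 42.0% of WT, a narrow range over the 3 labels. MAP1LC3B (ENSG00000140941, 87383995 to 87404779, plus strand), an ATG8 protein that coats autophagosomes, had 63.4, 15.01 and 14.8 FPKM in G3C2, against 126, 24.8 and 28.1 FPKM in WT. The 3 genes had log2 fold changes of -1.64 (SE 0.18), -0.92 (SE 0.14) and -0.85 (SE 0.15).

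MAF (ENSG00000178573, 79585843 to 79600714, minus strand), a leucine zipper transcription factor, was low in a single library. It had 9.38, 12.7 and 3.44 FPKM in G3C2, against 10.9, 17.0 and 19.2 FPKM in WT, so the log2 difference was -2.19 for label c and -0.19 and -0.40 for labels 1 and b. Its log2 fold change was -0.93 (SE 0.45). ZCCHC14, a zinc finger RNA-binding protein, was also lowest in G3C2 c, with 11.8, 10.2 and 6.46 FPKM in G3C2, against 18.3, 14.9 and 20.8 FPKM in WT. KLHL36, an adaptor of cullin ubiquitin ligases, had 12.2, 3.98 and 3.22 FPKM in G3C2, against 22.0, 6.62 and 8.60 FPKM in WT. The G3C2 library was the lower of the 2 under each label for all of these genes. KIAA0513 (log2 fold change -0.84, SE 0.18) and SPATA2L (-0.84, SE 0.14) complete the 8 lowest. With a pseudocount of 0.1 the log2 fold change of KIAA0513, a gene of low level, was -1.39.

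**Figure D2:**
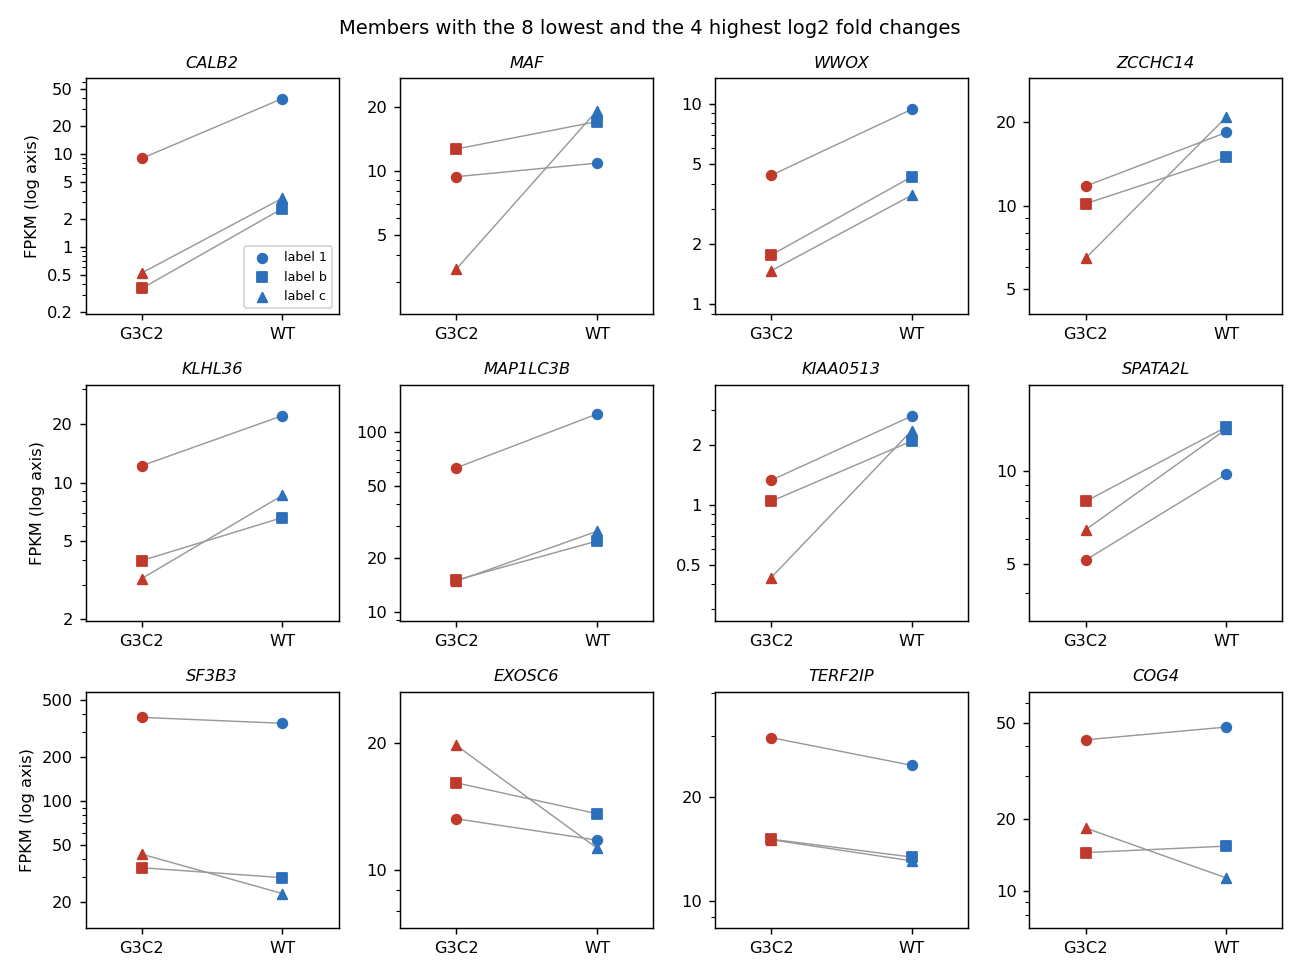
FPKM (log axis) of the members with the 8 lowest and the 4 highest log2 fold changes in each G3C2 library (red, left) and WT library (blue, right), joined within a replicate label by a grey line. All 8 of the lowest run upward from G3C2 to WT under every label, while MAF is set apart by its G3C2 c library (3.44 FPKM).

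A few members were higher in G3C2. SF3B3 (ENSG00000189091, 70523788 to 70577670, plus strand), a core subunit of the SF3b splicing complex, had 377, 34.7 and 43.0 FPKM in G3C2, against 343, 29.6 and 23.0 FPKM in WT (log2 fold change 0.41, SE 0.20). EXOSC6, a subunit of the RNA exosome, had 13.2, 16.1 and 19.7 FPKM in G3C2, against 11.8, 13.6 and 11.3 FPKM in WT (0.38, SE 0.17). TERF2IP (ENSG00000166848, 75647786 to 75761872, plus strand), also called RAP1, the shelterin protein that binds TERF2 at telomeres, had 29.7, 15.1 and 15.05 FPKM in G3C2, against 24.7, 13.4 and 13.1 FPKM in WT (0.20, SE 0.13). These were the 3 members higher under all 3 labels. SF3B3 and EXOSC6 lie before VAC14, a division made after the values were seen, and TERF2IP lies among members that were lower. The fourth highest, COG4 of the Golgi tethering complex, had a log2 fold change of 0.13 (SE 0.20), with differences of -0.17, -0.08 and 0.64.

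By role, the members of membrane traffic, autophagy and proteolysis formed the largest group. Of 27, 20 were lower under all 3 labels, none was higher under all 3 and 7 were mixed, with a median log2 fold change of -0.47 (set beside 18.7% lower over all protein-coding genes). GLG1, a Golgi sialoglycoprotein, had 111, 19.9 and 16.4 FPKM in G3C2, against 154, 25.5 and 24.7 FPKM in WT. MBTPS1, the site-1 protease that cleaves SREBP and ATF6 in the Golgi, had 147, 22.1 and 19.01 FPKM in G3C2, against 180, 25.3 and 26.7 FPKM in WT. USP10, a deubiquitinase, had 91.8, 12.8 and 20.2 FPKM in G3C2, against 163, 22.3 and 17.7 FPKM in WT, and was thus lower for labels 1 and b and higher for label c. IST1 and CHMP1A, both of the membrane-scission machinery ESCRT-III, had log2 fold changes of -0.61 (SE 0.14) and -0.29 (SE 0.15), and AP1G1, a clathrin adaptor subunit, -0.52 (SE 0.14).

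Signalling, adhesion, cytoskeleton and channel genes had the lowest median, -0.48. Of 19, 14 were lower under all 3 labels and none higher under all 3 (18.7% and 18.8% over all protein-coding genes). PIEZO1, a mechanically gated cation channel, had 45.5, 11.0 and 19.4 FPKM in G3C2, against 99.7, 16.3 and 22.2 FPKM in WT (log2 fold change -0.61, SE 0.28), and 20.2% of its exon bases overlap another gene. JPH3, a junctophilin that ties the plasma membrane to the endoplasmic reticulum, had 13.1, 13.8 and 10.4 FPKM in G3C2, against 17.3, 25.3 and 26.4 FPKM in WT (-0.82, SE 0.20). COTL1, an actin-binding protein, went opposite ways, with 91.1, 29.1 and 69.97 FPKM in G3C2, against 171, 43.7 and 31.7 FPKM in WT. BCAR1, a focal adhesion scaffold, had differences of -0.07, -0.34 and 0.26 (log2 fold change -0.05, SE 0.16, and 0.09 without label b). CRISPLD2, a secreted protein, had differences of 0.05, -0.04 and 0.19 (0.07, SE 0.15).

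Transcription and chromatin genes had a median of -0.37. Of 20, 13 were lower under all 3 labels and none higher under all 3 (18.7% and 18.8% over all protein-coding genes). IRF8, an interferon regulatory factor best known from myeloid cells, had 5.76, 1.04 and 1.67 FPKM in G3C2, against 16.3, 3.10 and 1.80 FPKM in WT (log2 fold change -0.81, SE 0.25). Its levels for label c nearly coincided. The abundant TCF25, a component of ribosome quality control, had -0.40 (SE 0.18), ANKRD11, a chromatin regulator, -0.27 (SE 0.16), HSBP1, a binding partner of heat shock factor, -0.23 (SE 0.22) and GSE1, a subunit of a histone demethylase complex, 0.04 (SE 0.14). GSE1 spans the stretch just before GINS2, with a level in G3C2 of 98.1%, 97.8% and 116% of WT.

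Metabolic and mitochondrial genes had a median of -0.37. Of 17, 8 were lower under all 3 labels and none higher under all 3 (18.7% and 18.8% over all protein-coding genes). COX4I1 (ENSG00000131143, 85798633 to 85807044, plus strand), a nuclear-encoded subunit of cytochrome c oxidase, had 212, 50.3 and 61.4 FPKM in G3C2, against 306, 76.3 and 46.4 FPKM in WT (log2 fold change -0.24, SE 0.25). APRT, which salvages adenine into AMP, had 38.7, 22.6 and 34.5 FPKM in G3C2, against 73.2, 44.7 and 30.0 FPKM in WT (-0.55, SE 0.25). Both were lower for labels 1 and b and higher for label c. SLC7A5, the light chain of the LAT1 amino acid transporter, had 40.8, 45.6 and 68.2 FPKM in G3C2, against 98.2, 49.4 and 62.0 FPKM in WT, so its value (-0.41, SE 0.32) rested on label 1. GALNS, a lysosomal sulfatase, had -0.57 (SE 0.19), HSDL1, a mitochondrial dehydrogenase-like protein, -0.37 (SE 0.17), and ST3GAL2, a Golgi sialyltransferase, 0.01 (SE 0.17).

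RNA processing and translation genes had a median of -0.33. Of 15, 5 were lower and 2 higher under all 3 labels (18.7% and 18.8% over all protein-coding genes). RPL13, a protein of the large ribosomal subunit and the most deeply read member of the second table (16208 to 25372 reads per library), had 403, 99.04 and 129.9 FPKM in G3C2, against 412, 139 and 122 FPKM in WT. Its G3C2 level was 97.9%, 71.5% and 106% of WT. KARS, the lysyl-tRNA synthetase (now KARS1), had 166, 33.3 and 52.4 FPKM in G3C2, against 286, 55.6 and 42.6 FPKM in WT (-0.41, SE 0.25). AARS, the alanyl-tRNA synthetase, lies before VAC14 and had 291, 57.2 and 54.5 FPKM in G3C2, against 322, 52.3 and 59.5 FPKM in WT (-0.05, SE 0.16). DHX38, a splicing helicase, had a log2 fold change of -0.56 (SE 0.16).

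Among the 8 genes of chromosome replication and maintenance, 2 were lower and 1 (TERF2IP) higher under all 3 labels (18.7% and 18.8% over all protein-coding genes). Their median was -0.31. RFWD3, a ubiquitin ligase of the replication fork, had 89.0, 11.9 and 17.7 FPKM in G3C2, against 155, 20.9 and 15.04 FPKM in WT (log2 fold change -0.44, SE 0.23). GINS2, a subunit of the replicative helicase, had 35.2, 13.7 and 23.5 FPKM in G3C2, against 73.2, 27.1 and 11.95 FPKM in WT (-0.35, SE 0.39). CDT1, which loads the MCM helicase onto origins, had 27.6, 17.6 and 29.7 FPKM in G3C2, against 41.4, 35.1 and 17.5 FPKM in WT (-0.27, SE 0.32). CENPN, a kinetochore protein that reads the centromeric nucleosome, had 39.5, 8.45 and 16.4 FPKM in G3C2, against 59.0, 15.6 and 8.77 FPKM in WT. Overlap with any other gene covered 22.8% of the exon bases of CENPN, with CMC2 the largest single overlap. For all 4 genes, G3C2 was the lower for labels 1 and b and the higher for label c. CDK10, a cyclin-dependent kinase, had -0.47 (SE 0.28), of which label 1 gave -1.11 and label b -0.02.

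**Figure D3:**
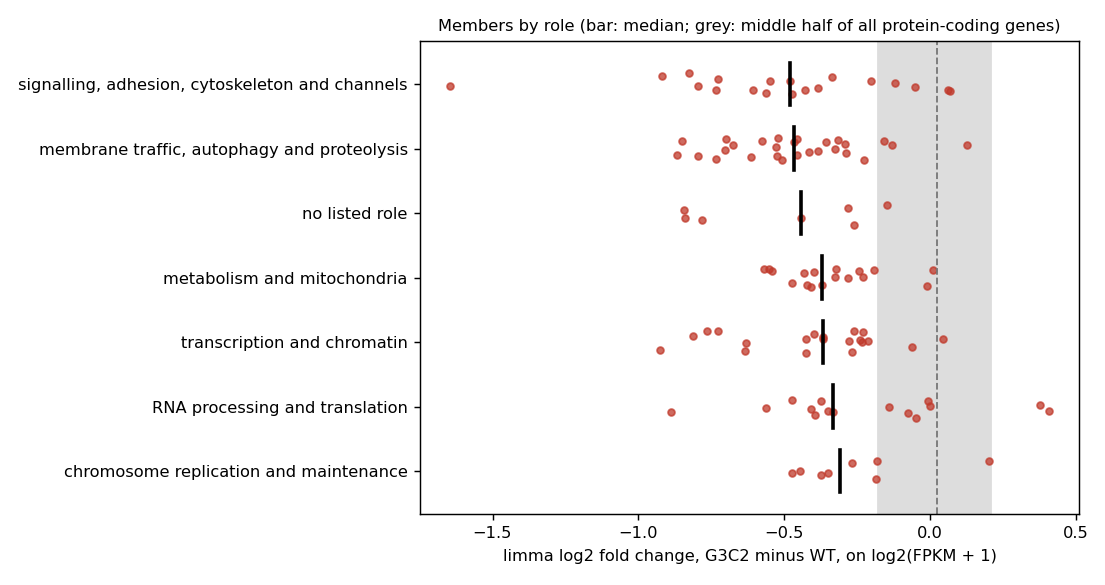
Each point is a member, placed by its limma log2 fold change (G3C2 minus WT, on log2(FPKM + 1)) within its role, with a black bar at the median of the role; the grey band is the middle part (quartile to quartile) of all tested protein-coding genes, from -0.18 to 0.21, and the dashed line their median. The medians of the listed roles lie between -0.48 and -0.31, all left of the band.

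Label c differed from labels 1 and b for many genes, members among them. Of the 113 members, 26 were lower in G3C2 for labels 1 and b and higher for label c, 23.0% of them, while 21.3% of all tested protein-coding genes did the same. For these 26, the median change from library b to library c was -0.39 in WT and 0.49 in G3C2 on the log2(FPKM + 1) scale. Over all 113 members, the medians were 0.02 in WT and 0.10 in G3C2. A larger change in G3C2 than in WT follows from how the 26 were picked. GINS2 moved by 0.74 in G3C2 and by -1.12 in WT between those libraries, CDT1 by 0.72 in G3C2 and by -0.96 in WT, and CENPN by 0.88 in G3C2 and by -0.76 in WT. The 13 genes of replication licensing outside the region had medians of -0.31, -0.28 and 1.21 (G3C2 minus WT for labels 1, b and c). The part of this shared movement in the members' values was not tested. Without label c the members' median log2 fold change was -0.49, and 93 of 113 were lower under both remaining labels. Over all tested protein-coding genes, 18.7% were lower under all 3 labels and 21.3% lower for labels 1 and b but higher for label c.

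**Figure D4:**
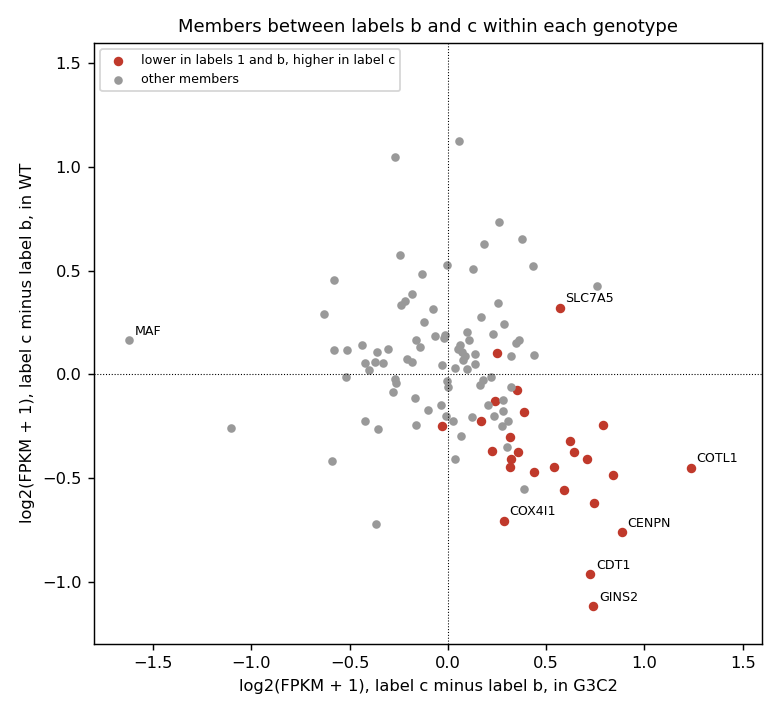
Each point is a member, with the change in log2(FPKM + 1) from library b to library c in G3C2 on the x axis and in WT on the y axis; red points are the 26 members lower in G3C2 for labels 1 and b and higher for label c. Most red points lie at the lower right, higher in G3C2 c than in G3C2 b and lower in WT c than in WT b, with GINS2 and CDT1 lowest. A larger change in G3C2 than in WT is fixed by how the red points were picked.

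Several members encode single subunits of complexes whose other subunits lie outside the region, which allows a comparison with genes that the rule did not pick. Partner lists for 13 complexes or families held 123 genes, of which 120 were tested. None of the 120 passed in either direction in limma's fit over all genes (0.02% of all genes called higher, 0.0267% lower), and at an unadjusted p under 0.05 there were 8 higher and 2 lower (6.19% and 7.43% of all genes). Without label c, PSMC1 was called higher and NDUFA4, GARS, CHMP4C and CENPI lower, in a fit that called 2.99% of all genes higher and 3.05% lower. The partners' median log2 fold change was 0.18, with 22 higher (18.3%) and 5 lower (4.17%) under all 3 labels, where 18.8% of all tested protein-coding genes were higher and 18.7% lower. Of the 17 members with a partner list, 12 lay below the median of their partners under each of the 3 labels. The members' side of this comparison follows from how the region was chosen.

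COX4I1 shows how the comparison reads across labels. Its log2 differences were -0.53, -0.59 and 0.40, against medians of 0.11, -0.18 and 1.09 for 11 other subunits of cytochrome c oxidase, among them COX7C (0.41, SE 0.24) and COX6B1 (0.36, SE 0.30). It was higher in G3C2 c than in WT c, and below each of the 11 partners there. EMC8 of the endoplasmic reticulum membrane protein complex had -0.59, -0.60 and 0.73, against 0.12, 0.11 and 0.81 for 9 partners. PSMD7 of the proteasome lid had -0.44, -0.49 and -0.04, against -0.10, -0.17 and 0.75 for 15 partners, with 30.7% of its exon bases overlapping another gene. GINS2 (-1.04, -0.94 and 0.92) and CDT1 (-0.57, -0.96 and 0.73) lay below the median of the 13 licensing genes under each label (-0.31, -0.28 and 1.21), though for label c GINS4, MCM3 and MCM6 were lower than GINS2, and GINS4 was lower than CDT1. The most abundant licensing genes were MCM7 (0.31, SE 0.42) and MCM4 (0.13, SE 0.29).

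TAF1C, a subunit of the RNA polymerase I factor SL1, lay farthest from its partners. Its log2 fold change was -0.63 (SE 0.25), against a median of 0.26 for TBP, TAF1A, TAF1B and TAF1D. AP1G1 had -0.52 (SE 0.14), against 0.08 for 5 adaptor partners, and KARS -0.41 (SE 0.25), against 0.03 for 18 other cytosolic tRNA synthetases. Of these 18, VARS had 176 FPKM in G3C2 1 and 309 FPKM in WT 1, but at most 0.0062 FPKM in any library b or c. CARS had at most 1.29 FPKM in those libraries, so differences of VARS and CARS for labels b and c say little. IST1 and CHMP1A lay below a median of 0.09 for 11 ESCRT-III partners, and CENPN (-0.18, SE 0.32) below 0.26 for 13 inner kinetochore genes. The 2 ATG8 members differed from each other. MAP1LC3B had -0.85 (SE 0.15) and GABARAPL2, which acts in the same conjugation pathway, -0.13 (SE 0.14), against -0.17 for 3 further ATG8 genes, with 54.6, 19.4 and 18.0003 FPKM of GABARAPL2 in G3C2, against 63.3, 21.2 and 18.7 FPKM in WT. MAP1LC3B2 among those 3 is a near copy of MAP1LC3B, so reads of the 2 genes may be exchanged. GABARAP had at most 1.46 FPKM and MAP1LC3B2 at most 3.32 FPKM in any library, so their differences are understated on this scale. The third, GABARAPL1, had differences of 0.39, 0.11 and -1.02 for labels 1, b and c. The 5 members that did not lie below their partners under each label were AARS, GABARAPL2, SF3B3, TERF2IP and COG4. AARS, SF3B3 and COG4 precede VAC14, a division made after the values were seen.

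**Figure D5:**
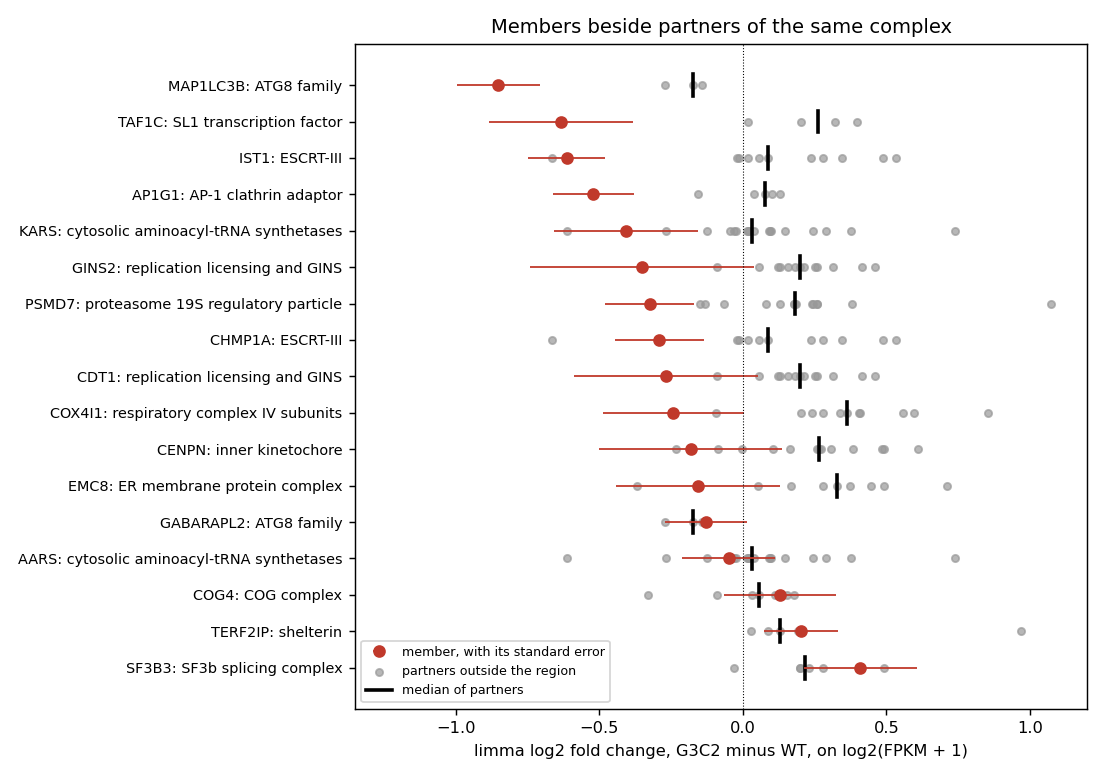
Limma log2 fold change (G3C2 minus WT, on log2(FPKM + 1)) of 17 members (red, with bars of 1 standard error) beside the partners of the same complex or family outside the region (grey) and their median (black bar). Most members lie left of their partners' bar, while SF3B3, TERF2IP, COG4 and GABARAPL2 do not.

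Some members start back to back with another member. In 11 pairs on opposite strands, with annotated starts within 1000 bases of each other, 22 members took part, and in 9 pairs both genes had a log2 fold change below 0, as had 105 of the 113 members (92.9%) taken singly. COX4I1 and EMC8 had similar differences under each label (-0.53, -0.59 and 0.40 for COX4I1, and -0.59, -0.60 and 0.73 for EMC8). KARS and TERF2IP did not, with -0.79, -0.72 and 0.29 for KARS and 0.26, 0.16 and 0.19 for TERF2IP, the widest gap in log2 fold change of the 11 pairs (0.61). The files do not state whether counting used strand, so reads where the 2 genes of a pair overlap cannot be assigned with certainty. That overlap was 4.3% of the exon bases of KARS and 5.2% of those of TERF2IP.

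Start regions are shown for 1 gene of each of these pairs, COX4I1 (which differed like its neighbour) and TERF2IP (which did not), and for WWOX and MAP1LC3B, 2 of the 8 lowest members. Each runs from 250 bases before to 50 bases after the RefSeq start, 5′ to 3′ on the strand of the gene, from RefSeq on GRCh38.p14. Capitals mark matches on either strand to any of 5 motifs searched, the ETS family core CCGGAAG, the CCAAT box, the TATA box TATAAA, the E-box CACGTG and the longer palindrome of NRF1, whose match can be read in capitals in the MAP1LC3B line.
COX4I1, chr16:85799445-85799744, plus strand: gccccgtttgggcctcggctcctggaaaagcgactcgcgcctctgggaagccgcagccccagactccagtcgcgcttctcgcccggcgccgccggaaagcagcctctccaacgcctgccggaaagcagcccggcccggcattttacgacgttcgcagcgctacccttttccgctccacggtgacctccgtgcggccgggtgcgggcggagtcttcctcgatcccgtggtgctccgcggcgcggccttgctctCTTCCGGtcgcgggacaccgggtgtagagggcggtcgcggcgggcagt
TERF2IP, chr16:75647523-75647822, plus strand: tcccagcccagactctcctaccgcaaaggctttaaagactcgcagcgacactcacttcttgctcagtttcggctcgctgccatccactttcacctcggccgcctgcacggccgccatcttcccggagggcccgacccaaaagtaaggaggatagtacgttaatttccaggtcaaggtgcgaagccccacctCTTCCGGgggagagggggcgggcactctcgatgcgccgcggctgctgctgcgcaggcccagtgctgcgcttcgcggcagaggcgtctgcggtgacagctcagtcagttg
WWOX, chr16:78099404-78099703, plus strand: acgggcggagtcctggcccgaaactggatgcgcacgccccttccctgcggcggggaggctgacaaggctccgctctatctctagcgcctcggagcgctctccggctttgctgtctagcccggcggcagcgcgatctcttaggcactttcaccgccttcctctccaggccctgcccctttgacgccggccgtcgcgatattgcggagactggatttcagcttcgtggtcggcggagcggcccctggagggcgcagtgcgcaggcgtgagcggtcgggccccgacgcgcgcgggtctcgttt
MAP1LC3B, chr16:87392086-87392385, plus strand: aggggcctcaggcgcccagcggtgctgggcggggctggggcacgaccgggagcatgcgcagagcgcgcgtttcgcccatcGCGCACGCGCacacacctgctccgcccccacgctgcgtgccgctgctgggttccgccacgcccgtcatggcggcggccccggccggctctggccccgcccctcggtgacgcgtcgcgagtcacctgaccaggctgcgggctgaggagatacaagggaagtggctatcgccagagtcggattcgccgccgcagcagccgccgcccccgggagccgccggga
The COX4I1 and TERF2IP windows each hold the ETS letters on the opposite strand. COX4I1 was lower for labels 1 and b and higher for label c, and TERF2IP was higher throughout. A link between the letters and these differences was not tested. The EMC8 window overlaps that of COX4I1 on the other strand, and its ETS match is the same stretch of bases read from that strand. MAP1LC3B holds an NRF1 match, and WWOX holds none of the 5 motifs.

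Of the 113 members, 90 matched a promoter in that table, and they were rich in G and C. Their median GC content was 69.0%, against 65.7% for 9660 promoters of tested protein-coding genes. The ETS letters stood in 28 of 90 member promoters (31.1%), in 19.7% of those of tested genes and in 14.2% of all 15843 protein-coding promoters. The NRF1 letters stood in 16.7% of member promoters, 11.98% of those of tested genes and 8.58% of all. The CCAAT box stood in 32.2%, 36.5% and 36.4%, the TATA box in 4.44%, 5.11% and 9.63%, and the E-box in 10.0%, 10.1% and 8.88%. Motifs can overlap in 1 window, and a match is a description of letters, not of a bound site. Members had a median gene span of 27.9 kb, against 33.8 kb for all tested protein-coding genes.

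Of 25 tested genes of other types in the same region (antisense, long noncoding, pseudogene and other noncoding genes), 6 reached 1 FPKM in WT libraries alone, so that a lower level in G3C2 follows from the filter, and no count over the 25 is given. Among the members, NECAB2 alone reached 1 FPKM in WT libraries and in no G3C2 library. Of the 113 members, 71 share under 5% of their exon bases with another gene, and their median log2 fold change was -0.41. The 56 members with the lower mean FPKM had a median of -0.42 and the other 57 a median of -0.37. Their median levels in G3C2 were 60.6% and 66.6% of WT for label 1, and 68.4% and 71.5% for label b. For label c they lay further apart, at 64.6% and 92.3%. Lower under all 3 labels were 38 of the 56 and 28 of the 57 (18.7% over all protein-coding genes). The 3 members higher under all 3 labels were among the 57. C16orf46 passed the expression limit through libraries 1 alone, with 1.63 FPKM in G3C2 and 3.32 FPKM in WT, and was listed at 0 in G3C2 b, G3C2 c and WT c. Overlap with any other gene covered 84.3% of its exon bases.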

How the data were processed

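Poly(A) RNA was sequenced in 6 libraries. The authors deposited FPKM values per gene in 2 tables, with HISAT2, CASAVA and GRCh38.p12 named in the submitters' processing notes; the counter, its strand setting and what the FPKM denominator counts are not given in the sources used here. Of 56982 identifiers in both tables, 56868 matched GENCODE 29. The scale differed by table, so genotypes were compared within a table. FPKM summed to 712633 in G3C2 and 705014 in WT in the first. In the second, the sums were 258735 in G3C2 b, 264495 in WT b, 319282 in G3C2 c and 235190 in WT c. The sums of the libraries c thus differed within a table, while their median FPKM over tested genes was 5.03 in G3C2 and 5.05 in WT. Of the second table's values above 0, 97.3% to 97.4% were whole reads within 0.02 reads when GENCODE exon lengths were used; the depth of the first table was not recovered.

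Genes needed at least 1 FPKM in at least 2 libraries (15001 genes). The fit was limma 3.58.1 (R 4.3.3) on log2(FPKM + 1), with terms for genotype and table and with its trend option; p-values were adjusted by Benjamini-Hochberg over all genes and called at 0.05. The code was tested on simulated data. Fold changes on this scale understate those of low genes. Same-labelled libraries deviated together from their group means (r = 0.93, 0.80 and 0.60). They were taken as paired in the counts by label, and the label was also fitted as a block. However, tables scaled apart give such values by themselves, and for b and c alone r was -0.17. The matching of b with b and of c with c thus rests on the titles alone. All p-values rest on the variation among these 6 libraries, which may be technical.

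Members, roles, partner lists and alternatives were chosen with earlier results of these data known. Genes were named by a rule: in each role the 4 most abundant members, the 2 lowest and the 1 highest by fold change, the 8 lowest and 4 highest of all members, those beside the limits, and for each partner list its members in the region and up to 2 abundant partners. Others named (VAC14, C16orf46 and members of back-to-back pairs) were chosen after their values were seen. Python 3.11.15, pandas 2.3.3, numpy 2.4.6 and matplotlib 3.10.9 served for the rest. 1 of the marker genes examined is not reported here.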

Additional observations from a re-analysis of the deposited data

How the results depend on the processing

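The members' median log2 fold change, -0.39, lay between -0.49 and -0.27 over every setting run, the value nearest 0 coming from all 170 genes of the region without an expression filter. Leaving out libraries or labels gave -0.49 to -0.29; with a pseudocount of 0.1 it was -0.47. With 2 alternatives added after the data were seen, it was -0.41 for members with under 5% shared exon bases and -0.41 from VAC14 on. The count lower under all 3 labels, 66 of 113, was 43 of 80 at a mean FPKM of at least 5, where fewer genes entered. It was 69 to 93 with a label left out, where only 2 labels are asked for. Shares over all genes under these settings are not set beside these counts, so nothing is read from them. Without a table term, with the block or with another variance model the count under all 3 labels cannot change, so it was not run. A single left-out library breaks its pair and is covered by its label. Of 716 alternative values of the 40 genes named by fold change or level, 38 had the opposite sign, all in 11 genes: AARS, BCAR1, CDT1, CENPN, COG4, COTL1, CRISPLD2, GSE1, RPL13, SLC7A5 and ST3GAL2. Without a sign change, 9 values moved by over 1 SD of the 3 labels: with a pseudocount of 0.1 CALB2 (-2.38), KIAA0513 (-1.39) and WWOX (-1.17), with quantile normalization AARS, GLG1 and TERF2IP, and WWOX in 3 leave-outs. Over all genes, 3 were called higher and 4 lower by limma. None was called higher without a filter, with the replicate block, without a table term, in the second table alone, with equal medians or with quantile normalization. Lower calls numbered 0 in these settings except 1 with the replicate block, and 1 at a mean FPKM of at least 5; unadjusted p under 0.05 held for 223 genes (no table term) to 2909 (no filter). Leave-outs gave 0 to 448 higher and 0 to 457 lower, the most without label c. Complex partners called numbered 0 in both directions in every setting but that without label c, with 1 residual degree of freedom (0 to 1 higher and 0 to 4 lower over the leave-outs). The causes were not tested. Libraries 1 have no recovered depth, which leaves their counting error unknown. Members called lower numbered 0 in each setting except without label b (2) and without label c (34). No member, and none of all 15001 genes, passed limma's test of a genotype effect that differs between tables. At an unadjusted p under 0.05, 5 of 113 members passed it, as did 429 of all 15001 genes.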
